A study of Mus musculus with 11 samples.

Results

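Myeloid C-type lectin receptors were followed through single-cell transcriptomes of tissue macrophages (macs) with and without the transcription factor ZEB2. The 10 genes of the list were Clec4a1, Clec4a2, Clec4a3, Clec4b1, Clec4n, Clec4d, Clec4e, Clec12a, Clec1b and Clec7a, chosen by name. Of these, 9 had a row among the 27998 genes of each table. No row carried the symbol Clec7a, the gene of Dectin-1, a receptor for fungal beta-glucans, so that gene was not analysed here.

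The macs came from 5 tissues and 11 libraries, with 1 library per tissue and genotype. They were brain microglia, macs of the colon (CMs), Kupffer cells of the liver (KCs), alveolar macs of the lung (AMs) and macs of the spleen (SMs). WT libraries came from mice with loxP-flanked Zeb2 (Zeb2fl/fl) and no CRE. The Zeb2KO libraries came from Zeb2fl/fl mice with a CRE transgene, so both genotypes share the floxed alleles. For the liver there was also a WT library from CRE-negative Nr1h3fl/fl mice. The labels give the genotype of every Zeb2KO library as Fcgr1-crexZeb2fl/fl, a CRE under the control of the gene for CD64. In the results, legends and methods of the study, the single-cell KCs instead came from Clec4f-cre and the AMs from Itgax-cre mice. Fcgr1-cre is given there for the macs of spleen, brain and colon. For liver and lung the labels and the study thus disagree, which was not resolved here. According to the methods, the mice were young C57Bl/6 adults of both sexes with littermates as controls, and these CRE lines also act in some other cells. KCs were sorted on the C-type lectin Clec4F together with CD64, F4/80 and CD45. All other sorts used F4/80 and CD64 as well, to which CD11c and SiglecF were added for AMs and intermediate CD45 for microglia. For CMs and SMs, cells with Ly6C, Ly6G or SiglecF were excluded. The liver and lung libraries were sequenced on another instrument than the remaining tissues, but the libraries of a pair shared theirs. How many mice contributed to a library is not stated in the sources used here. By the study's own account, deletion was incomplete outside the brain. The Zeb2KO libraries of the other tissues thus mix macs with and without a functional allele, which the labels do not tell apart, and the ratios of whole libraries apply to this mixture.

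C-type lectin receptors are membrane proteins of myeloid cells that bind sugars, lipids or proteins of microbes and damaged cells through an extracellular lectin-like domain. Activating members such as Dectin-2 (Clec4n), MCL (Clec4d) and Mincle (Clec4e) pair with the adaptor Fc receptor gamma chain (Fcer1g), which recruits the kinase SYK and, through CARD9, BCL10 and MALT1, turns on NF-kappaB target genes. Inhibitory members such as DCIR1 (Clec4a2) and Clec12a instead carry an ITIM motif that recruits the phosphatases SHP-1 and SHP-2.

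After a cell filter and removal of clusters of other cell types, 2830 to 6974 macs remained per library, with 7591023 (SM WT) to 43299021 (CM WT) UMIs in total and a median of 2181 to 9208 UMIs per cell. A UMI is 1 counted transcript molecule. Levels are given as UMIs per 1000000 UMIs of the kept macs (CPM), with exact Poisson 95% intervals that cover counting error only. These intervals do not cover the spread between mice, since there are no replicates within a tissue. In summed libraries, a lower level cannot be told apart from fewer cells with the gene. Where no UMI was seen, the limit given is that of 3 counts over the total UMIs of the library. The markers of each tissue's macs were present in the libraries labelled with it. The 6 microglia markers summed to 24573 CPM in WT microglia and to 495 CPM at most in WT macs of other tissues, and the 7 AM markers to 10718 CPM in WT AMs against 933 CPM at most elsewhere in WT. The 6 CM markers did not set CMs apart, with 25164 CPM in WT CMs, 27481 CPM in WT microglia and 22008 CPM in WT KCs. The Zeb2 transcript did not report its own deletion, since its level was higher in Zeb2KO than in WT in all 5 pairs (475 against 1747 CPM in microglia). Counting at the 3′ end reads a part of the transcript that the deletion of an internal exon leaves in place, so this level cannot show the loss itself. The study used higher Zeb2, with other markers, to find macs without ZEB2 in spleen, brain and colon, and proposes a feedback on the truncated transcript. Barcodes were shared by at most 1.45% of the smaller of 2 libraries.

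All members lie on chromosome 6 (GENCODE M21, GRCm38/mm10) in 2 groups. The first group spans 368 kb, chr6:122921848-123289870, and holds, in order, Clec4a1, Clec4a3, Clec4b1, Clec4a2, Clec4n, Clec4d and Clec4e, of which only Clec4e is on the minus strand. The second lies 6053 kb further on, chr6:129342691-129472779, and holds Clec12a, Clec1b and Clec7a. The annotation overlaps Clec1b with Clec9a and Clec4a2 with Gm44132. Of the windows of 98 bases (the length taken for a read) in the last 500 bases of their transcripts, 8.23% in Clec1b also occurred in Clec9a and 3.01% in Clec4a2 also occurred in Clec4a4, so the split of reads within these pairs is uncertain. None of the other members shared such a window with another gene.

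The promoters of the 5 members that differed at least 2-fold between genotypes in a tissue are shown, with that of Clec1b, which was lower in Zeb2KO in all 5 tissues, because the data concern deletion of a DNA-binding factor, ZEB2, whose zinc fingers bind the E-box CACCTG. Each is a RefSeq window (GRCm38.p6) from 250 bases before to 50 after a gene start, written 5′ to 3′ on the strand of the gene. Capitals mark matches, on either strand, to CACCTG or to motifs of 3 other myeloid factor families, namely GAGGAAG (PU.1), TTGCNNAA (C/EBP) and TGANTCA (AP-1). None of the matches printed overlapped another.
Clec4a2 (chr6:123122440-123122739, plus strand): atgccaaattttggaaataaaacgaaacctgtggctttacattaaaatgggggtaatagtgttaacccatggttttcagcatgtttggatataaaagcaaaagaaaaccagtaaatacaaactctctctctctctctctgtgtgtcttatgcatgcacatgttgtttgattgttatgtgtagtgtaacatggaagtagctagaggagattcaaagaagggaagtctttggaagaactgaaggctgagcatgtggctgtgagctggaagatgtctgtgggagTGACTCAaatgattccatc
Clec4a3 (chr6:122952265-122952564, plus strand): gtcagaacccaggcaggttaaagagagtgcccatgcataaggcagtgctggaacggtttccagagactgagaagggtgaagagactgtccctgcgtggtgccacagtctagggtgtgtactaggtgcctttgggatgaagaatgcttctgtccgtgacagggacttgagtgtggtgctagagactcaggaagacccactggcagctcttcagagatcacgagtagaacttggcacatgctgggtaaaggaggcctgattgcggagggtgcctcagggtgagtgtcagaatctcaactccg
Clec4b1 (chr6:123049712-123050011, plus strand): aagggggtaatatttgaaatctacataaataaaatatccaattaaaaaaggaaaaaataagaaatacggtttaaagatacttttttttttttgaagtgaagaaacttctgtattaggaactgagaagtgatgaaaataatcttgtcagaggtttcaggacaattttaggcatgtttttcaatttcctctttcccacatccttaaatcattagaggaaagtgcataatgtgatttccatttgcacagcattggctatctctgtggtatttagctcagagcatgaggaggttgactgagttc
Clec4d (chr6:123261857-123262156, plus strand): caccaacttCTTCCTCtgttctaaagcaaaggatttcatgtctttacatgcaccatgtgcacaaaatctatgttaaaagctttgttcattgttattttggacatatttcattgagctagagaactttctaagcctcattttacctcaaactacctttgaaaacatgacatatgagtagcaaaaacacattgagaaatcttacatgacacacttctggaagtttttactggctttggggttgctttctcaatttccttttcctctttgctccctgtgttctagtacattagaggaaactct
Clec4e (chr6:123289822-123290121, minus strand): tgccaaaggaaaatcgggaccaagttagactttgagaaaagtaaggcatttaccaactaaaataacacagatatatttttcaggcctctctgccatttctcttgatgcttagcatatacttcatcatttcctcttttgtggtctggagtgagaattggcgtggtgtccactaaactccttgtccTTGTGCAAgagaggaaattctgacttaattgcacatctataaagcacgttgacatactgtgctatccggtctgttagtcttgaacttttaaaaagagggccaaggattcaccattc
Clec1b (chr6:129397047-129397346, plus strand): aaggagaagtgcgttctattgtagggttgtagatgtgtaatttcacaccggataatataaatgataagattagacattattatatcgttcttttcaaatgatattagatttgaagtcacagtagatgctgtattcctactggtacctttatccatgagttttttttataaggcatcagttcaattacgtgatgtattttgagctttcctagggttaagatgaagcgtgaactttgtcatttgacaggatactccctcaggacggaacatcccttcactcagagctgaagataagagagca

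RefSeq windows were found for 9 of the 10 genes (11 windows, with a pair each for Clec4a3 and Clec7a), and Clec4n had none in the table. None of the 11 windows held CACCTG or its reverse complement, and 20.2% of the 32851 promoter windows of the table did. The windows of a pair overlap, and so few windows do not set the members apart from that share. GAGGAAG was found in 3 of the 11 (Clec12a, Clec4a1, Clec4d) against 13.6% of all windows, TTGCNNAA in 2 (Clec12a, Clec4e) against 10.8%, and TGANTCA in 2 (Clec12a, Clec4a2) against 7.81%. In the printed windows the match of Clec4d starts 241 bases before the gene start, that of Clec4e 66 bases before it and that of Clec4a2 31 bases after it, and those of Clec4a3, Clec4b1 and Clec1b hold none. The Clec4a2 window lies within the GENCODE gene, downstream of the outermost annotated start. A match is a string of letters only, and a window without one says nothing on binding elsewhere.

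In WT macs the receptors were spread over the tissues in different ways, and microglia had the lowest level of 7 of the 9 (all but Clec4a1 and Clec1b), although for Clec4e their interval overlapped that of SMs. The inhibitory receptor Clec4a2 was the most even, from 353 CPM in CMs through 273 CPM in SMs, 211 CPM in KCs and 208 CPM in AMs to 164 CPM in microglia. Its levels in KCs and AMs did not differ beyond their counting intervals. Its paralog Clec4a3 (DCIR3) ran from 355 CPM in SMs over 289 CPM in KCs, 286 CPM in CMs and 218 CPM in AMs to 133 CPM in microglia, with KCs and CMs not separable. These were the 2 members that microglia expressed above 20 CPM.

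Clec4a1 was instead a gene of 3 of the tissues. It had 326 CPM in SMs, 301 CPM in CMs and 192 CPM in KCs but only 4.62 CPM in microglia and 2.66 CPM in AMs. Clec4b1, which encodes DCAR, reached 65.3 CPM in SMs and 61.5 CPM in AMs, whose intervals overlapped. KCs (40.6 CPM) and CMs (37.8 CPM) also overlapped each other, and microglia had 0.892 CPM. In the Nr1h3fl/fl WT library KCs had 65.7 CPM, so the place of KCs in this order depends on the library.

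Among the activating receptors, Clec4n (Dectin-2, a receptor for fungal mannans) had 727 CPM in SMs, 609 CPM in CMs, 572 CPM in AMs and 258 CPM in KCs. In WT microglia no UMI of it was seen, which allows up to 0.243 CPM. Clec4d (MCL) had 64.7 CPM in CMs, 23.4 CPM in AMs, 10.8 CPM in KCs and 4.61 CPM in SMs, and in WT microglia it was likewise not seen (up to 0.243 CPM). Clec4e (Mincle, a receptor for mycobacterial cord factor and for a protein of dead cells) had 50.2 CPM in AMs, 12.1 CPM in CMs, 5.53 CPM in KCs and 1.32 CPM in SMs, and 3 UMIs in all of WT microglia. So the order of the tissues was not the same for these neighbouring genes.

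Clec12a, an inhibitory receptor for uric acid crystals, was high in KCs (433 CPM) and SMs (362 CPM), lower in CMs (56.3 CPM) and AMs (37.0 CPM) and at 0.730 CPM in microglia. Clec1b encodes CLEC-2, known best as the platelet receptor for podoplanin. It had 705 CPM in KCs, 148 CPM in SMs, 19.8 CPM in AMs, 6.49 CPM in microglia and 4.06 CPM in CMs, and each step of this order exceeded the counting intervals. The 7 platelet markers of the list summed to between 0.568 and 17.3 CPM in the Zeb2fl/fl WT libraries, and in WT KCs to 0.901 CPM with Gp1ba, Gp1bb and Tubb1 at 0.

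The pair of WT liver libraries shows how far a member moved without any deletion of Zeb2. Zeb2fl/fl and Nr1h3fl/fl KCs had 192 and 291 CPM of Clec4a1, 40.6 and 65.7 CPM of Clec4b1, 211 and 227 CPM of Clec4a2, 289 and 314 CPM of Clec4a3, 258 and 220 CPM of Clec4n, 433 and 385 CPM of Clec12a, and 705 and 565 CPM of Clec1b. On the log2(CPM + 1) scale used for all ratios here, the largest of these was 0.68 (Clec4b1). None of the 7 members that reached 20 CPM differed at least 2-fold between these libraries, a rule that 0.522% of 5551 genes passed as higher and 0.847% as lower in Nr1h3fl/fl. Both of the others were lower in Nr1h3fl/fl, Clec4d with 2.54 against 10.8 CPM and Clec4e with 0.264 against 5.53 CPM. Most of their UMIs came from 1 small cluster led by Alox15, Prg4 and Slpi, which held 85 cells of the Zeb2fl/fl library. There Clec4d had 174 CPM and Clec4e 121 CPM, against 3.39 and 0.314 CPM in the cluster with most WT KCs. The tissue orders above use the Zeb2fl/fl liver library. In the Nr1h3fl/fl library Clec4d and Clec4e were below WT SMs (4.61 and 1.32 CPM), for Clec4d with overlapping intervals.

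**Figure D1:**
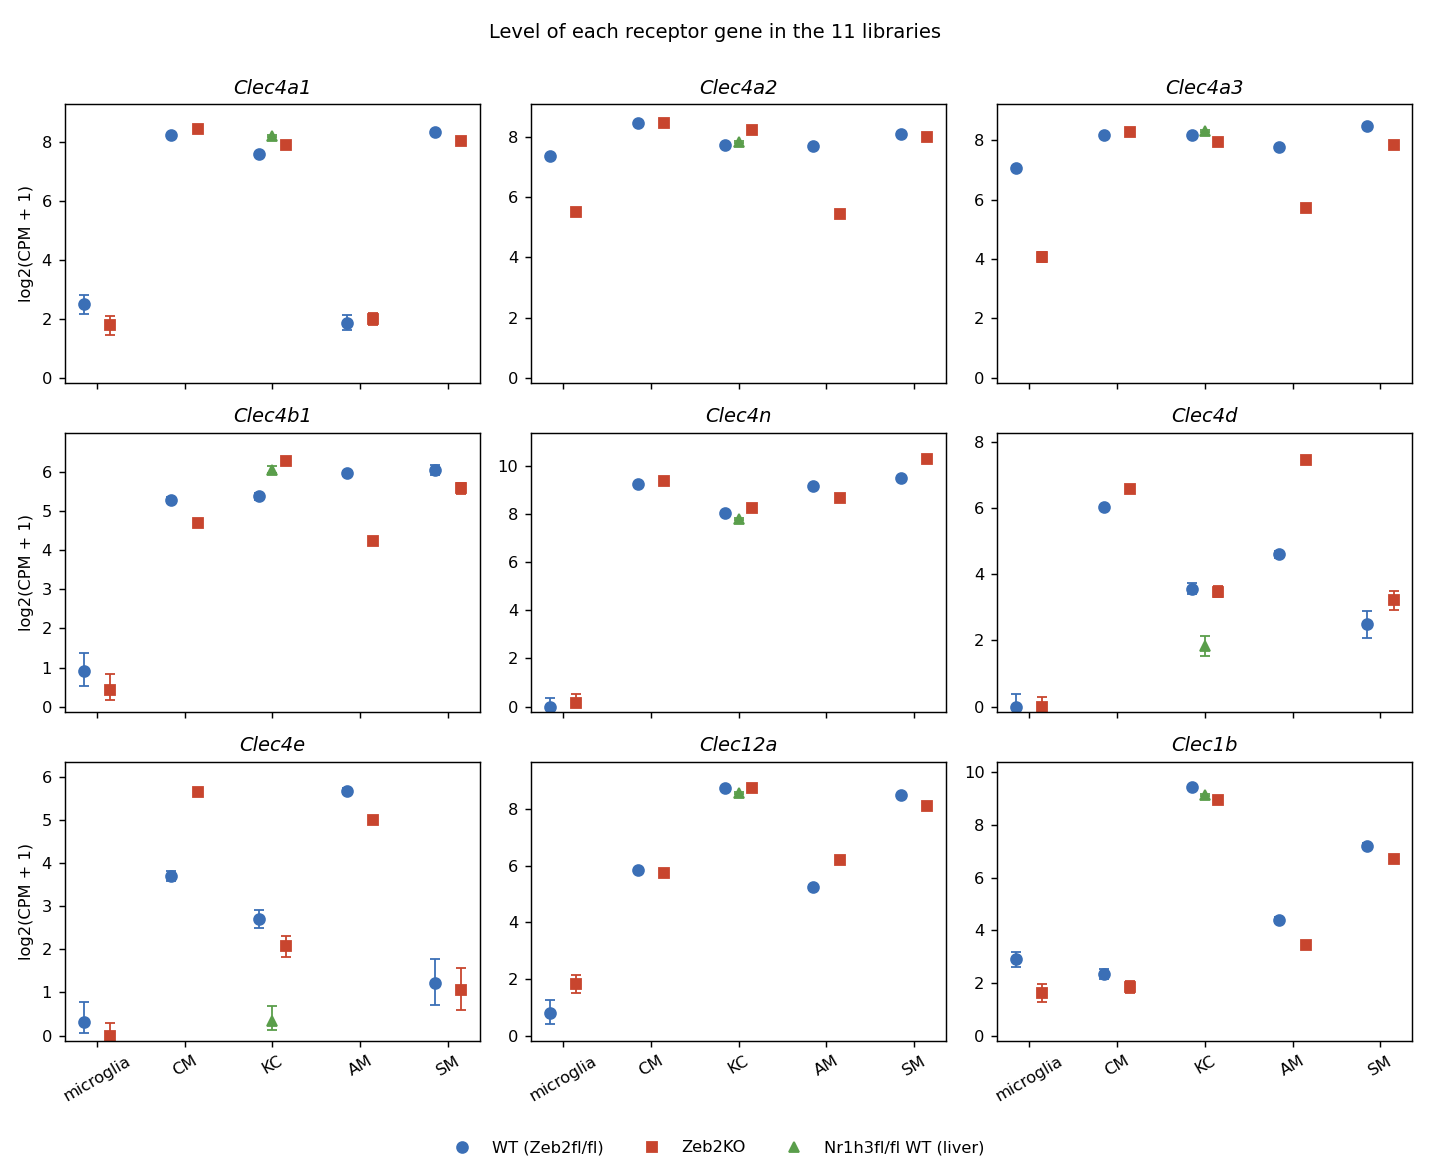
Level of each of the 9 measured receptor genes, as log2(CPM + 1) on the vertical axis, in the WT (circles), Zeb2KO (squares) and Nr1h3fl/fl WT (triangle) libraries of each tissue on the horizontal axis, with exact Poisson 95% intervals. The widest gaps between circle and square are those of Clec4a2 and Clec4a3 in microglia and AMs, Clec4b1 and Clec4d in AMs and Clec4e in CMs.

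Between Zeb2KO and WT, a member counted as different when its ratio reached 2-fold, with genes considered from 20 CPM upwards in either library. This is a rule of size and not a test, as each group has 1 library. In microglia, both considered members were lower in Zeb2KO (2 of 2), against 4.07% of 5922 genes lower and 4.27% higher. In AMs, 3 of 7 were lower and 1 was higher, against 7.33% of 5812 genes lower and 4.35% higher. In CMs, 1 of 8 was higher and none lower, against 1.07% of 5139 genes higher and 0.486% lower. In KCs, 0 of 7 passed in either direction (3.38% of 5385 genes higher, 1.17% lower), and in SMs 0 of 7 (2.54% of 6179 genes higher, 0.858% lower). With the Nr1h3fl/fl library as the control of the liver, 0 of 7 passed as well, with 4.21% of 5750 genes higher and 4% lower. The CM and SM sorts excluded cells with SiglecF, and the study reports higher Siglecf in colonic and splenic macs without ZEB2. Whether these sorts left out some of such macs is not known, and the CM and SM counts hold for the sorted cells.

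The paralogs Clec4a2 and Clec4a3 were lower in the same 2 tissues. Clec4a2 had 164 CPM in WT and 44.1 CPM in Zeb2KO microglia (log2 ratio -1.87), and 208 CPM in WT and 42.2 CPM in Zeb2KO AMs (-2.28). Clec4a3 had 133 CPM in WT and 15.7 CPM in Zeb2KO microglia (-3.00), and 218 CPM in WT and 51.6 CPM in Zeb2KO AMs (-2.06). For each gene these were its 2 lowest values among the 11 libraries.

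In the remaining tissues this pair stayed within 2-fold of WT. Clec4a2 had 353 CPM in both CM libraries, 211 CPM in WT and 299 CPM in Zeb2KO KCs, and 273 CPM in WT and 256 CPM in Zeb2KO SMs. Clec4a3 had 286 and 308 CPM in WT and Zeb2KO CMs, 289 and 242 CPM in KCs, and 355 and 230 CPM in SMs. The difference between tissues was not tested, since no tissue has replicates.

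The share of cells with a UMI, which at a fixed depth largely restates the level, was lower too. With every cell thinned to 1000 UMIs, a UMI of Clec4a2 was found in 14.2% of WT and 4.41% of Zeb2KO microglia (exact binomial 95% intervals 12.9 to 15.5% and 3.73 to 5.17%), and in 18.6% of WT and 5.07% of Zeb2KO AMs. For Clec4a3 the shares were 11.9% and 2.0% in microglia and 19.2% and 5.76% in AMs. Without thinning they were 49.1% and 18.9% (Clec4a2) and 40.4% and 7.25% (Clec4a3) in microglia, although the Zeb2KO cells had more UMIs (median 4955 against 4202). No left-out cell type gave a background share for microglia or AMs.

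In microglia the level was low in each of the 5 clusters with at least 50 Zeb2KO cells. The 3 clusters held apart by genotype, defined by a share of the Zeb2KO cells at least 9 times that of the WT cells, had 45.8, 52.4 and 35.5 CPM of Clec4a2 and 15.6, 19.9 and 11.2 CPM of Clec4a3. In the other two, led by Ifitm1 and by Ifit1, the Zeb2KO cells had 19.2 and 36.2 CPM of Clec4a2 and 11.5 and 12.1 CPM of Clec4a3. The WT clusters with at least 50 cells had 107 to 182 CPM of Clec4a2 and 73.0 to 159 CPM of Clec4a3. The members were left out of the genes used for clustering.

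In AMs the Zeb2KO cells were not alike. The largest Zeb2KO cluster, led by Auts2, Ceacam10 and Cd177 with 59.5% of the library, had 6.69 CPM of Clec4a2, 30.4 CPM of Clec4a3 and 2.65 CPM of Clec4b1. The second, led by Spag11b, Ddah1 and Slc1a3 with 27.3% of the library, had 141, 117 and 66.7 CPM. The first of these clusters held no WT cell. The 98 WT cells in the second had 195 CPM of Clec4a2, 189 CPM of Clec4a3 and 63.9 CPM of Clec4b1. Thus the Clec4b1 level of the second cluster overlapped WT, while those of Clec4a2 and Clec4a3 were below WT by more than the intervals. Whether the cells of these clusters kept a functional Zeb2 allele is not given by the labels, and its part in these levels was not tested. In the study, AMs with EpCam and CD101 had deleted Zeb2, while AMs without EpCam kept a copy. These markers were not read by cluster here.

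**Figure D2:**
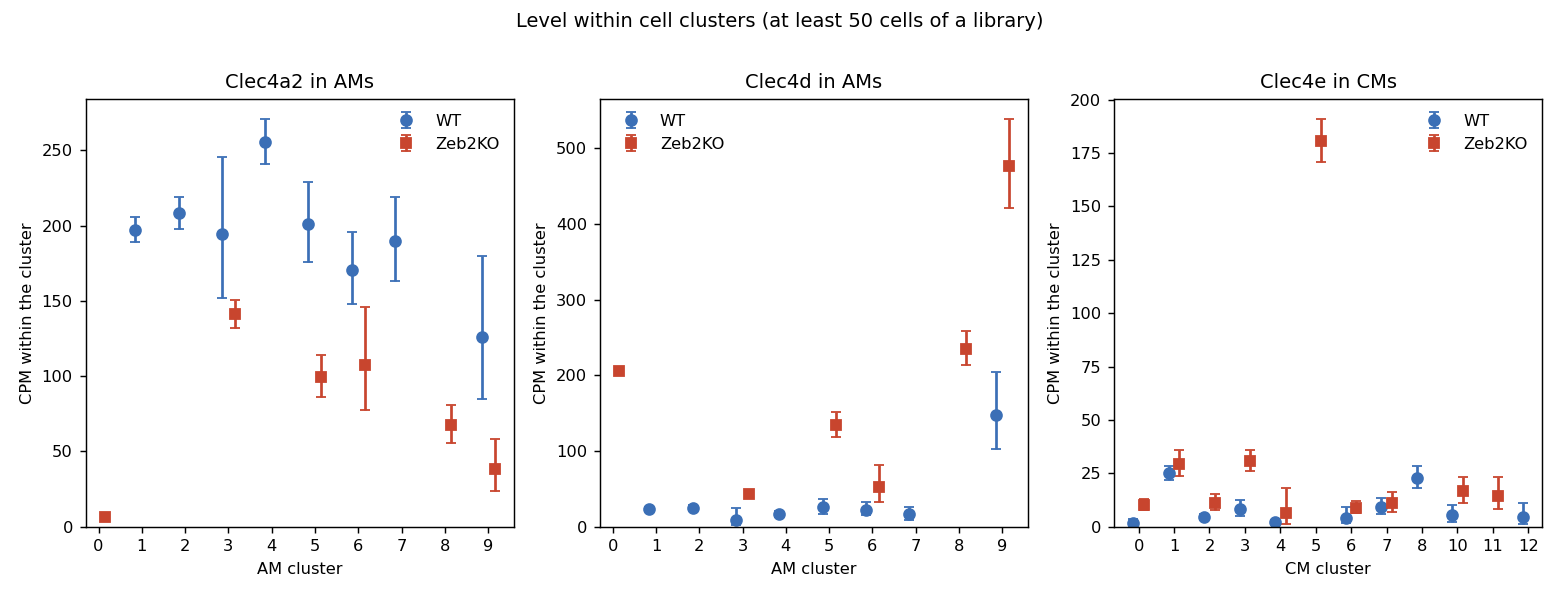
Level of Clec4a2 and Clec4d in AM clusters and of Clec4e in CM clusters, as CPM within the cluster (vertical axis) with exact Poisson 95% intervals, for WT (circles) and Zeb2KO (squares) cells of each cluster with at least 50 cells of a library (horizontal axis, cluster number). Clec4a2 is at 6.69 CPM in AM cluster 0, which held no WT cell, and Clec4e at 181 CPM in CM cluster 5.

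Clec4b1 was lower at library level too in AMs, with 61.5 CPM in WT and 17.7 CPM in Zeb2KO (log2 ratio -1.74). In KCs it was 40.6 CPM in WT, 76.7 CPM in Zeb2KO and 65.7 CPM in Nr1h3fl/fl WT, so the Zeb2KO value lay closer to the other WT library than the WT libraries did to each other. The study lists Clec4b1 among genes that differ between embryonic and monocyte-derived KCs. A liver cluster led by Cx3cr1, Ccr2 and Cd207 held 12.2% of Zeb2KO, 0.947% of WT and 0.353% of Nr1h3fl/fl WT cells that passed the cell filter. The part of this cluster in the Clec4b1 level was not tested. Clec4b1 had 37.8 and 24.7 CPM in WT and Zeb2KO CMs, and 65.3 and 46.9 CPM in SMs. In WT CMs its level was high in a cluster led by Ear2, Ccr2 and Cd209a (158 CPM, 362 cells), which made up 0.954% of the Zeb2KO cells that passed the cell filter against 7.90% of the WT cells.

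The activating receptor Clec4d had the largest ratio upwards among the 9 measured members. It had 23.4 CPM (21.6 to 25.2) in WT and 175 CPM (170 to 179) in Zeb2KO AMs, a log2 ratio of 2.85. A UMI of it was found in 2.49% of WT and 13.1% of Zeb2KO AMs after thinning. It was at 206 CPM in the largest Zeb2KO cluster and at 42.8 CPM in the second. A small cluster led by Hspa1b, Hspa1a and Hmox1 had it in both genotypes, with 147 CPM in WT (58 cells) and 477 CPM in Zeb2KO (85 cells). In CMs it had 64.7 and 94.7 CPM, in KCs 10.8 and 10.1 CPM, in SMs 4.61 and 8.26 CPM in WT and Zeb2KO, all within 2-fold. No UMI was seen in Zeb2KO microglia either, which allows up to 0.177 CPM.

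Markers of other cells were also higher in these AMs. The 7 monocyte markers, led by Ly6c2 and Ccr2, summed to 9.69 CPM in WT and 79.3 CPM in Zeb2KO, with none at 0 in either. The 8 neutrophil markers summed to 21.9 and 62.3 CPM, led by Mmp8, with Camp, Ngp and Elane at 0 in both. Their part in the Clec4d level was not tested. The median of all considered genes was itself -0.31 in AMs, and with TMM factors it was -0.0027. With them the share of genes that were higher among those differing 2-fold went from 37.3% to 67.0%, and the 4 members that differed still did so, joined by Clec12a.

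Clec4e was higher in Zeb2KO CMs, with 12.1 CPM (11.1 to 13.2) in WT and 49.3 CPM (47.0 to 51.6) in Zeb2KO, a log2 ratio of 1.94. A UMI was found in 1.14% of WT and 4.25% of Zeb2KO cells after thinning, against 0% of 131 WT (exact binomial upper limit 2.78%) and 0.813% of 123 Zeb2KO left-out fibroblasts. The transcript was concentrated in 1 cluster led by Hp, AF067061 and Mmp8, which held 19.8% of the kept Zeb2KO CMs and had 181 CPM (171 to 191). Of the cells that passed the cell filter, it held 18.8% in Zeb2KO and 0.677% in WT. Ms4a1 was also among its leading genes. The study used Ms4a1, with higher Zeb2 and Siglecf, to find colon macs without ZEB2. Zeb2 and Siglecf were not read by cluster here. The Zeb2KO cells outside the clusters held apart by genotype had 17.3 CPM, against 10.9 CPM in the corresponding WT cells. The 8 neutrophil markers, led by Mmp8 in both, summed to 2.03 CPM in WT and 25.9 CPM in Zeb2KO CMs with Camp, Ngp and Elane at 0. The 7 dendritic cell markers summed to 26.1 and 34.7 CPM. In the cluster with most Clec4e, the dendritic cell list had the highest mean log2 ratio to the other colon cells (1.57). There the macrophage markers were at -0.94. The part of these markers in the Clec4e level was not tested.

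Clec4d did not go with Clec4e in these cells. The same cluster had 51.6 CPM of Clec4d, below the 108 CPM of the Zeb2KO CMs outside the clusters held apart. The highest Clec4d among the CM clusters was in WT cells of a cluster led by Cdkn2a, Vsig4 and S100a4 (252 CPM), whose Zeb2KO cells had 122 CPM. In AMs, Clec4e was lower and not higher, with 50.2 CPM in WT and 30.9 CPM in Zeb2KO (log2 ratio -0.68, within 2-fold).

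**Figure D3:**
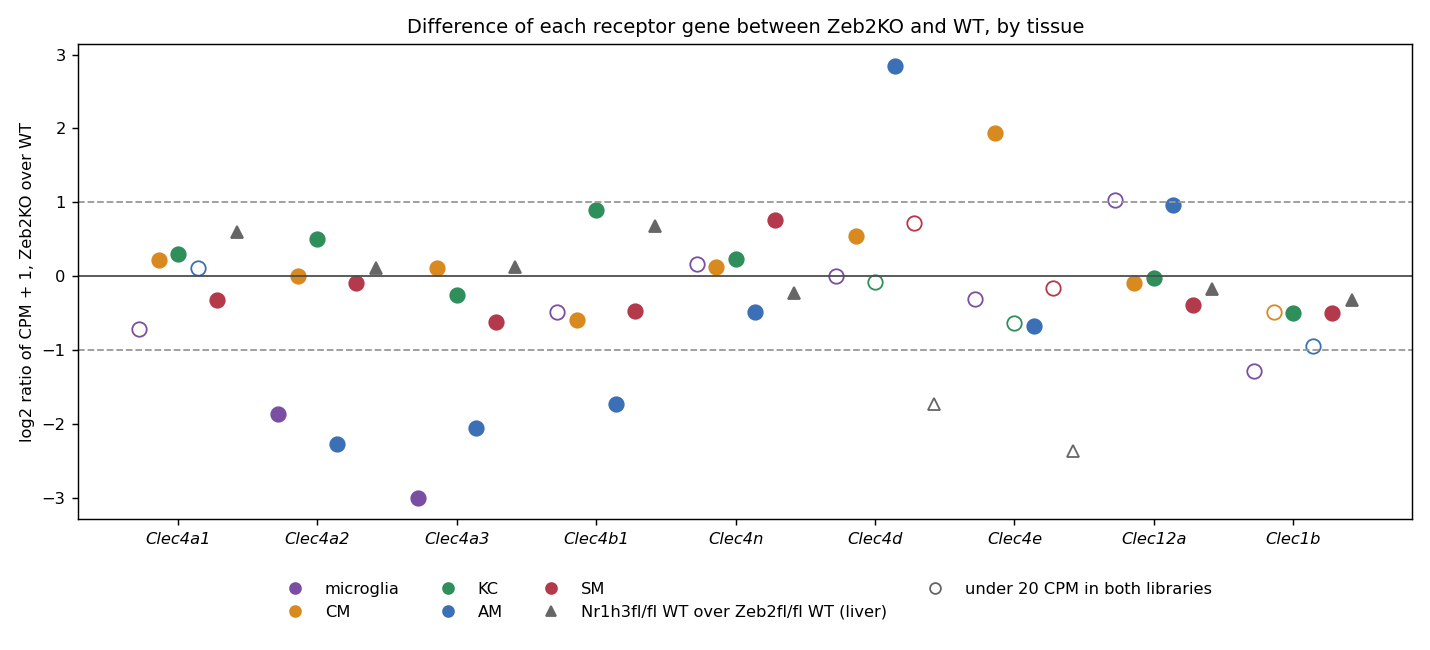
Log2 ratio of CPM + 1, Zeb2KO over WT (vertical axis), of each receptor gene (horizontal axis) in the 5 tissues (coloured circles), with the ratio of the Nr1h3fl/fl to the Zeb2fl/fl WT liver library as triangles. Open symbols are genes under 20 CPM in both libraries, and dashed lines mark 2-fold. Filled circles lie beyond the lines for Clec4a2 and Clec4a3 (microglia and AMs), Clec4b1 and Clec4d (AMs) and Clec4e (CMs), and all 5 circles of Clec1b lie below 0.

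Clec1b was the member that was lower in Zeb2KO in all 5 tissues. It had 705 CPM in WT, 565 CPM in Nr1h3fl/fl WT and 497 CPM in Zeb2KO KCs, and 148 CPM in WT and 104 CPM in Zeb2KO SMs. AMs had 19.8 and 9.82 CPM, microglia 6.49 and 2.07 CPM, and CMs 4.06 and 2.60 CPM in WT and Zeb2KO. The log2 ratios were -0.50 in KCs, -0.50 in SMs, -0.94 in AMs, -1.29 in microglia and -0.49 in CMs, where the last 3 tissues have fewer than 20 CPM in both libraries. In KCs the ratio to the Nr1h3fl/fl library was -0.18, and the WT libraries differed by -0.32.

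Whether a shift was common to the tissues was asked in a fit over the 5 WT and Zeb2KO pairs, blocked by tissue. In the edgeR quasi-likelihood test, 0% of 14128 genes passed an adjusted p of 0.05 (1595 had an unadjusted p under 0.05), and none of the members did. For Clec1b the log2 fold change was -0.77 with a standard error of 0.16 and an adjusted p of 0.224 in edgeR. DESeq2 with the same design gave -0.76 with an adjusted p of 0.00336, which made Clec1b 1 of the 0.832% of 13580 genes lower in Zeb2KO there. Hence the call of Clec1b rests on the tool. The other members had adjusted p-values of 0.444 (Clec4a3, log2 fold change -1.09 ± 0.46 SE) to 0.968 (Clec4a1 and Clec4e) in edgeR.

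The share of KCs with a UMI of Clec1b, thinned to 1000 UMIs, was 48.4% in WT, 39.6% in Nr1h3fl/fl WT and 37.0% in Zeb2KO. Liver cells left out as B cells had a UMI of it in 25.2% of 143 WT and 18.5% of 135 Zeb2KO cells at the same depth. They came through the KC sort, and their macrophage markers were at a mean log2 ratio of -0.84 to the other liver cells. Doublets with KCs may be among them, so how much of the liver shares is background is not known. In spleen the shares were 13.3% of WT and 9.97% of Zeb2KO SMs against 1.75% and 3.31% of the left-out B cells. The latter include a cluster with macrophage markers at a mean log2 ratio of -0.38 to the other splenic cells. Within Zeb2KO KCs, Clec1b was at 395 CPM in the cluster led by Siglecf, Ddit4 and Il1r2 (47.9% of the library). It was at 705 and 677 CPM in the clusters led by Cx3cr1 and Ccr2 and by Meg3 and Cd209f, and at 776 CPM in the cluster with most WT cells. In the study, KCs with SiglecF had deleted Zeb2, while KCs without SiglecF kept a copy. Those of the latter with Cx3cr1 and Ccr2 and without Timd4 were defined there as putative monocyte-derived KCs. Which alleles the cells of each cluster kept was not read here, and the part of Zeb2 in these Clec1b levels was not tested. Clec9a, which overlaps Clec1b, had 16.4 and 13.4 CPM in WT and Zeb2KO KCs.

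Clec4n was within 2-fold of WT in each of the 4 tissues where it reached 20 CPM. It had 727 CPM in WT and 1226 CPM in Zeb2KO SMs (log2 ratio 0.75), and a UMI of it was found in 46.3% and 62.1% of cells. Left-out splenic B cells also had it more often in Zeb2KO, in 23.7% of 514 cells against 12.02% of 799 in WT, and doublets with SMs may be among these cells. Among the Zeb2KO SM clusters it was at 1499 and 1380 CPM in those led by Cdkn2a and Slc7a11 and by Arc and Fabp4, and at 763 CPM in that led by S100a8 and S100a9. In AMs it was 572 and 409 CPM, in CMs 609 and 666 CPM and in KCs 258 and 302 CPM in WT and Zeb2KO. In Zeb2KO microglia 2 UMIs were seen.

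Clec12a had 37.0 CPM in WT and 73.2 CPM in Zeb2KO AMs. This log2 ratio of 0.97 was just inside 2-fold with scaling to total UMIs and 1.25 with TMM factors, which put it beyond 2-fold. In KCs it had 433 and 427 CPM, in CMs 56.3 and 52.7 CPM, in SMs 362 and 275 CPM, and in microglia 0.730 and 2.54 CPM. Clec4a1 had 301 and 350 CPM in WT and Zeb2KO CMs, 326 and 260 CPM in SMs, and 192 and 236 CPM in KCs, where Nr1h3fl/fl WT had 291 CPM. It stayed at 2.66 and 2.95 CPM in AMs and at 4.62 and 2.42 CPM in microglia.

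**Figure D4:**
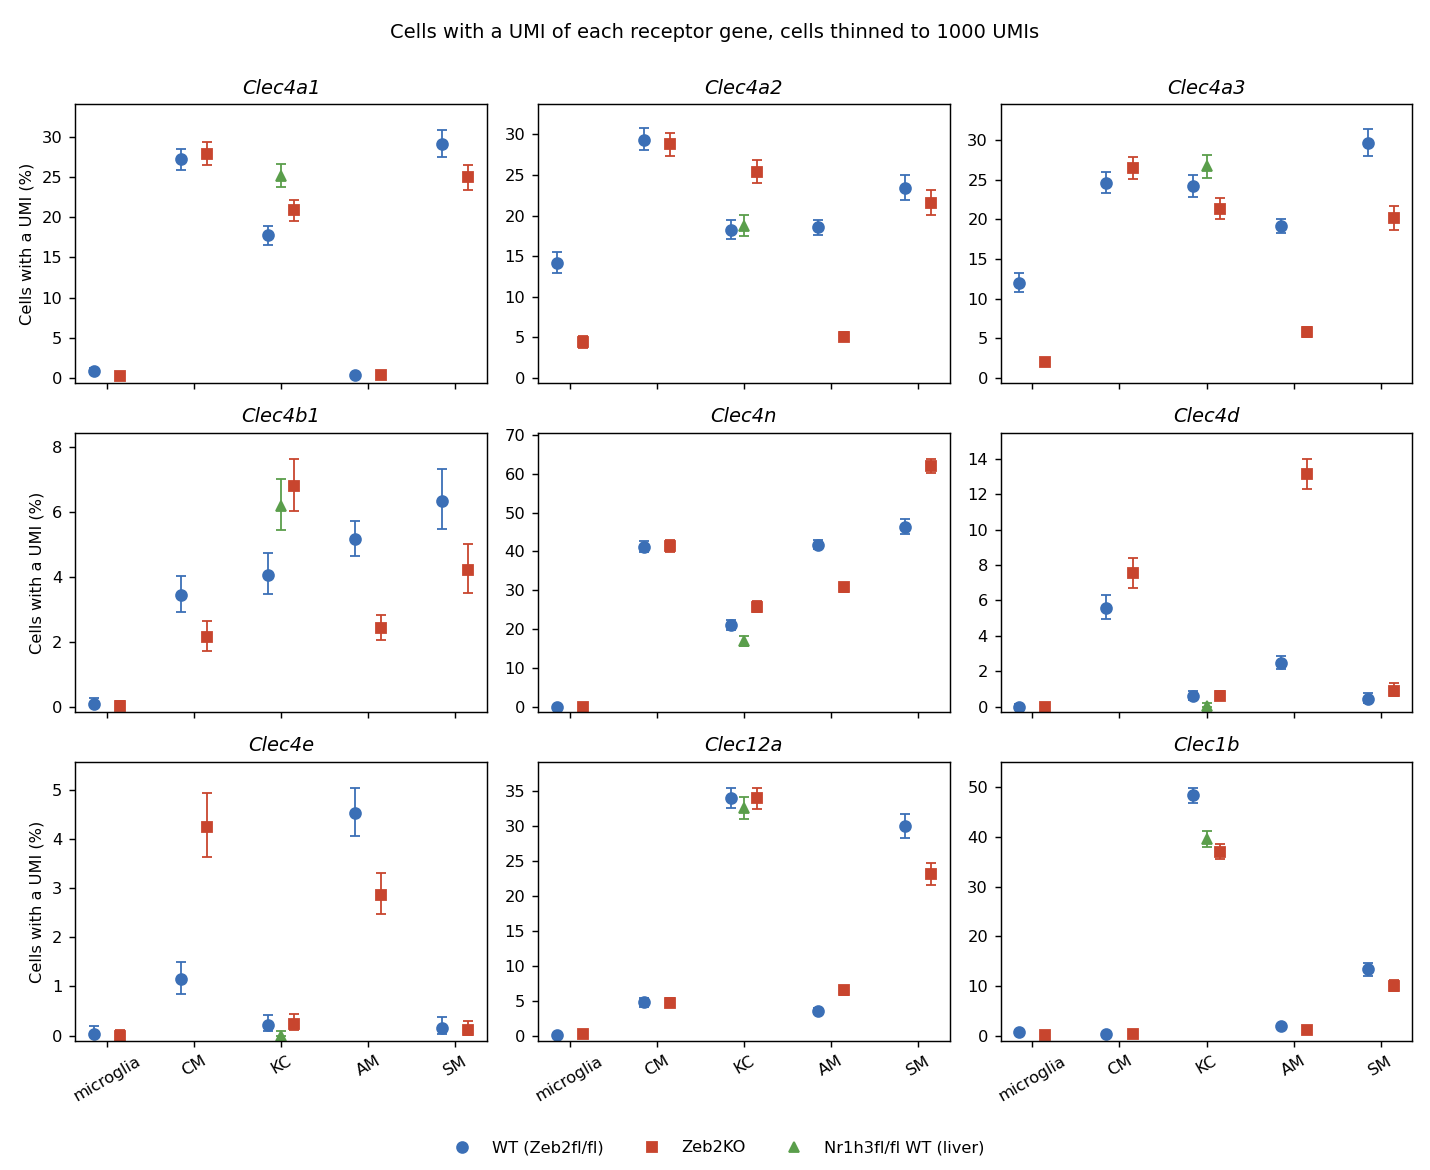
Percent of kept macs with at least 1 UMI of each receptor gene (vertical axis) after thinning every cell to 1000 UMIs, with exact binomial 95% intervals, in WT (circles), Zeb2KO (squares) and Nr1h3fl/fl WT (triangle) libraries of each tissue (horizontal axis). For Clec4a2 the share was 14.2% in WT and 4.41% in Zeb2KO microglia, for Clec4d 2.49% and 13.1% in AMs, and for Clec1b 48.4% and 37.0% in KCs.

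Over the 11 libraries, the genes whose pattern was most like that of each member were named by the Pearson correlation of log2(CPM + 1) among the 8027 other genes that reached 20 CPM. The libraries are pairs from 5 tissues, so these values describe mostly the tissues. Clec4a2 was most like Clec4a3 (r = 0.93), followed by Paics and Ms4a6c, and Clec4a3 was most like 0610012G03Rik (0.93), Dusp23 and Clec4a2. Clec4d was most like Fundc2 (0.95), Emb and S100a6, and Clec4e most like Anxa1 (0.96), Pdlim1 and Ahnak. Clec4n was most like the mannose receptor gene Mrc1 (0.98) and Trps1, and Clec4b1 like AI662270 (0.98), Pdgfc and Rap2b. Clec12a was most like Nr1h3 (0.99), Igf1 and Tmem51, Clec4a1 like Adamdec1 (0.99), Psd3 and Pla2g7, and Clec1b like its overlapping neighbour Clec9a (0.97), Dysf and Mta3.

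The genes downstream of these receptors were taken as a list of signalling genes and a list of target genes. Of the 20 signalling adaptors and enzymes, 15 to 18 reached 20 CPM in a tissue and none differed 2-fold in microglia, KCs, AMs or SMs. In CMs 1 of 18 did, Malt1, the paracaspase of the CARD9 complex, with 8.38 CPM in WT and 20.6 CPM in Zeb2KO, though 0 genes of the list passed with all barcodes summed. Of all considered genes in CMs, 1.07% were higher and 0.486% lower. The list had a median log2 ratio of 0.03 in microglia (all genes -0.09), 0.11 in CMs (0.05), -0.0011 in KCs (0.02), 0.03 in SMs (-0.02) and -0.46 in AMs (-0.31). The kinase Syk, named here outside the rule for the lists, had 54.1 and 48.7 CPM in WT and Zeb2KO microglia and 166 and 134 CPM in AMs, and the adaptor Fcer1g had 2683 and 3141 CPM in microglia and 2016 and 3220 CPM in AMs.

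Of the 16 target genes of C-type lectin receptor signalling, which other receptors also control, 7 of the 9 considered in microglia were higher in Zeb2KO and none lower, with a list median of 1.69 (4.27% of all considered genes were higher and 4.07% lower, median -0.09). Tnf had 51.5 CPM in WT and 565 CPM in Zeb2KO microglia, and Ptgs2, the inducible cyclooxygenase, 3.08 and 24.2 CPM. In the same libraries the 7 monocyte markers summed to 7.62 and 38.9 CPM, of which Plac8 alone had 2.92 and 36.0 CPM. Ccr2 went down from 3.41 to 2.13 CPM and F13a1 from 1.14 to 0 CPM, and Ly6c2 went from 0 to 0.354 CPM. Of the 6 hepatocyte markers, which summed to 60.3 CPM in Zeb2KO, Ttr had 0.405 and 59.9 CPM, Alb was under 1 CPM and the other 4 were at 0 in both. Those of microglia summed to 24573 and 16128 CPM with none at 0. The part of these in the target gene levels was not tested. In AMs 5 of 10 were higher and 3 lower (list median 0.70), where 4.35% of all considered genes were higher and 7.33% lower (median -0.31). The chemokine genes Ccl3 and Ccl4 were highest in ratio, with 215 and 1076 CPM and 83.8 and 345 CPM in WT and Zeb2KO AMs. The transcription factor gene Egr2 (402 and 91.0 CPM) and Tnf (264 and 61.1 CPM) were lowest. So Tnf was higher in microglia and lower in AMs at library level. In microglia a cluster with Il1b and Tnf among its leading genes held 17.5% of Zeb2KO and 0.0353% of WT cells. In AMs a cluster led by Ereg, Cxcl3 and Tnf held 26.4% of WT and 0.271% of Zeb2KO cells that passed the cell filter. The part of these clusters in the target gene levels was not tested.

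In KCs 2 of 7 target genes were higher, Ccl3 with 36.5 and 192 CPM and Ccl4 with 37.4 and 196 CPM in WT and Zeb2KO, and none was lower (list median 0.78). Against the Nr1h3fl/fl library 4 were higher, but 1 of these, Cxcl2, had 37.2 CPM in Zeb2fl/fl WT, 7.72 CPM in Nr1h3fl/fl WT and 28.2 CPM in Zeb2KO, so it differed at least 2-fold between the WT libraries themselves. In CMs 2 of 11 were higher, Ptgs2 with 35.0 and 106 CPM and the inflammasome gene Nlrp3 with 36.4 and 84.0 CPM (list median 0.38). In SMs 2 of 10 were higher, Ccl3 with 18.2 and 41.6 CPM and Il10 with 23.6 and 49.2 CPM (list median 0.07), but 0 were once all cells that passed the filter were summed. The median of all considered genes in KCs, CMs and SMs was 0.02, 0.05 and -0.02, and 3.38%, 1.07% and 2.54% of them were higher (4.21% in KCs against Nr1h3fl/fl).

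**Figure D5:**
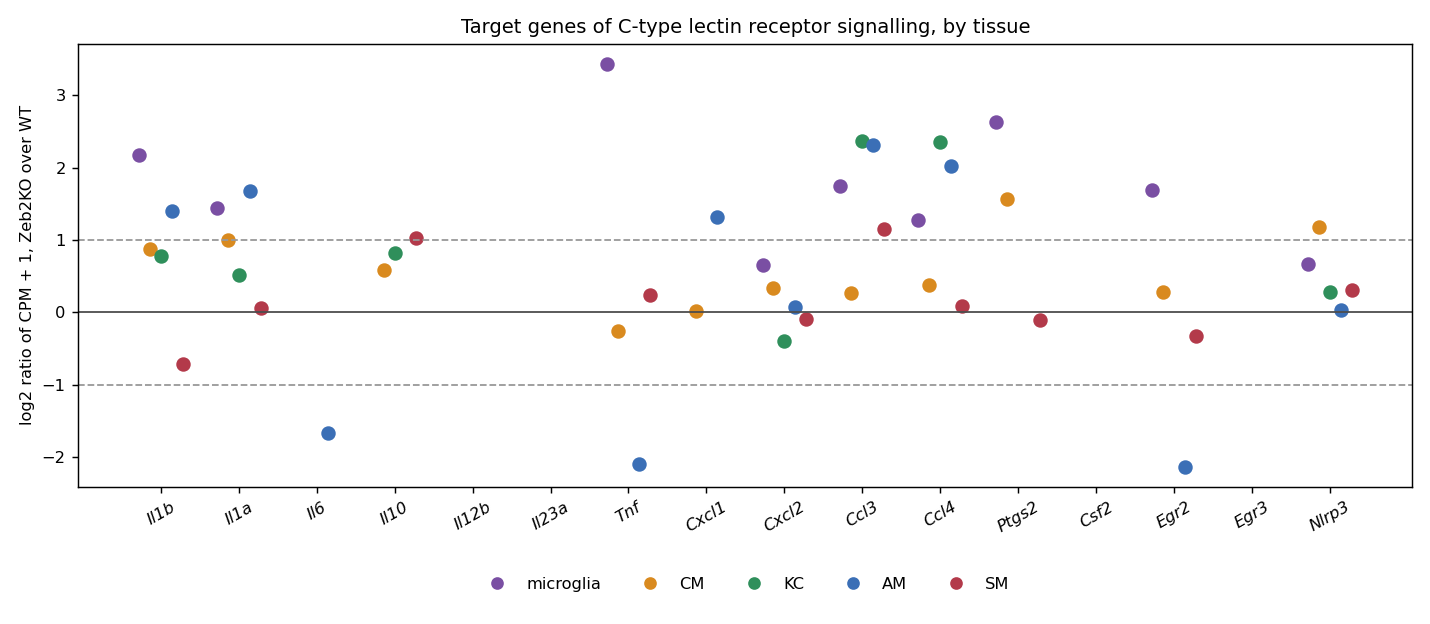
Log2 ratio of CPM + 1, Zeb2KO over WT (vertical axis), of the 16 target genes (horizontal axis) in the 5 tissues (coloured circles). Genes under 20 CPM in both libraries of a tissue are not drawn, and dashed lines mark 2-fold. Tnf lies at 3.43 in microglia and at -2.10 in AMs.

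Among the 34 other C-type lectin family genes, of which 33 had a row, AMs had most that differed, with 3 of 10 higher and 5 lower (list median -0.68). AMs also had the largest share of all genes that differed among the 5 pairs (4.35% higher and 7.33% lower, median -0.31). With TMM factors 2 were lower by the rule in place of 5. Clec5a, an activating receptor that signals through DAP12, had 17.9 and 94.0 CPM and Cd69 24.7 and 92.1 CPM in WT and Zeb2KO. Clec2d (84.1 and 14.2 CPM) and Klra2 (155 and 38.8 CPM) were lowest in ratio. In KCs Cd207, the gene of langerin, had 228 and 611 CPM, and Clec4f, whose protein was used in the sort, 6060 and 2110 CPM in WT and Zeb2KO, with 12 genes considered and no others that differed. Cd207 was also among the leading genes of the KC cluster led by Cx3cr1 and Ccr2, and the part of that cluster in its level was not tested. Against Nr1h3fl/fl WT, 2 of 12 were higher (Clec4g and Cd207) and 2 lower (Clec2d and Mrc1), with 4.21% of all considered genes higher and 4% lower. Of these, Clec4g also differed at least 2-fold between the WT libraries. Clec4f had 4172 CPM in Nr1h3fl/fl WT, and against that library it did not reach 2-fold (log2 ratio -0.98). In the Clec4f-cre line of the methods the CRE is inserted at the 3′ end of this gene, so if that line was used, the allele itself differs where the reads are counted. In SMs, with 6 genes considered, Cd209b had 3.56 and 48.0 CPM and Klra2 159 and 35.6 CPM. In CMs only Klrb1b of 14 passed (22.9 and 6.40 CPM), and in microglia only Cd302 of 3 (197 and 38.6 CPM). Among all considered genes, 3.38% were higher and 1.17% lower in KCs, 2.54% and 0.858% in SMs, 1.07% and 0.486% in CMs, and 4.27% and 4.07% in microglia.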

How the data were processed

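Per the labels and the methods of the study, the authors ran Cell Ranger (STAR, mm10) and deposited raw UMI counts per gene and cell barcode for 11 libraries, which are the unit used here; strand and multi-mapping follow that tool. The members and lists were chosen with earlier results of these data known. Cells beyond 3 median absolute deviations in UMIs, genes or mitochondrial share were removed. Cells of a tissue were clustered in scanpy 1.11.5 and leidenalg 0.10.2 (2000 variable genes, 30 components, 15 neighbours, resolution 0.8), without the members and Zeb2 among the variable genes. Clusters of other cell types were left out by marker lists (0 to 26.7% of a library). No doublet caller was run, and removal of the 5% of cells with the most UMIs was an alternative. UMIs were summed per library and scaled to CPM, with a pseudocount of 1 CPM. Ratios were called at 2-fold above 20 CPM. The 5 pairs were fitted in edgeR 4.0.16 (R 4.3.3, TMM, filterByExpr) and DESeq2 1.42.0 with the tissue as a block. The edgeR step was tested on simulated data. All members are named. Of each list, the 2 highest and 2 lowest called genes of a tissue are named, and the 3 most correlated genes of each member, of which 1 gene is not reported here. Thinning to 1000 UMIs left out 259 WT SMs and no other cell. Clusters were identified by number and leading genes.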

Additional observations from a re-analysis of the deposited data

How the results depend on the processing

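The 7 ratios that passed 2-fold did so under all 8 alternatives run for each of them (other scalings, a pseudocount of 0.5 CPM, all cells that passed the filter, all barcodes, without the 5% of cells with the most UMIs, and, chosen after seeing the data, without 4 further clusters led by genes of other cells and with Zeb2KO cells of the clusters held apart only). Their lowest and highest log2 ratios were -3.04 and -2.91 for Clec4a3 in microglia and 1.92 and 3.60 for Clec4e in CMs. TMM factors and DESeq2 size factors added Clec12a in AMs (1.25 and 1.24), a floor of 5 CPM added Clec1b in microglia (-1.29), and a floor of 50 CPM left 0 members in CMs. In the fit over the 5 pairs, 0 members passed except in DESeq2, where 1 did (Clec1b). The log2 fold change of Clec1b stayed between -0.84 and -0.55 in the fits, with edgeR adjusted p-values of 0.197 or more, and it was lower in all 5 tissues under every alternative run. The sign of 3 members that did not pass turned, Clec4e to -0.20 in DESeq2 and -0.66 without the CM pair (-0.66 to 0.45 with 1 pair left out), Clec4a1 to 0.12 without the microglia pair, 0.046 without the SM pair (-0.13 to 0.12 with 1 pair left out) and 0.049 without the tissue block, and Clec12a to -0.083 without that block; apart from the left-out pairs, the cause was not tested. Within tissues, log2 ratios of members that did not pass turned sign in CMs with Zeb2KO cells of the clusters held apart only (Clec4b1 to 0.30, Clec4d to -0.33, Clec4n to -0.46), in KCs with the Nr1h3fl/fl control (Clec4a1 to -0.30 and, under 20 CPM, Clec4d to 1.65 and Clec4e to 1.73), and for Clec12a in KCs and Clec4a2 in CMs and SMs, which were within 0.1 of 0. Without the 5% of cells with the most UMIs, Clec4d in KCs and Clec4e in SMs (to 0.23), both under 20 CPM, turned sign too. Shares of cells depend on depth. Their difference between genotypes turned sign between thinned and unthinned cells for Clec4a3 and Clec4n in CMs, Clec12a in KCs and Clec4a2 in SMs among members above 20 CPM. Whether the effect of the genotype differed between tissues could not be tested with 1 library per group.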
